A study of Mus musculus with 8 samples.

Results

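The genes described here encode metabotropic glutamate (mGlu) receptors in ribosome-associated mRNA from PV+ interneurons of the mouse primary somatosensory cortex (S1). They were chosen by family name alone and comprise *Grm2*, *Grm3*, *Grm4*, *Grm5*, *Grm7* and *Grm8*, 6 of the 45706 genes in the deposited tables. All 8 samples came from PvalbFlp/+;Neurod6Cre/+ mice injected in S1 at postnatal day 1 with an AAV that carries flox and fdio elements, HA-RPL10a and myc-hM3Dq, and used between postnatal days 42 and 70. Through HA-RPL10a, a tagged ribosomal protein, ribosomes and the mRNA on them can be pulled down, and hM3Dq is a designer receptor that raises neuronal activity when the drug CNO is given. Flp restricts the construct to cells that use the *Pvalb* promoter, and Cre from *Neurod6* removes it from pyramidal cells. The 4 CNO samples came from mice given CNO at 1 mg/kg in 5 injections over about 48 h, and the 4 vehicle (VEH) samples came from mice given vehicle on the same schedule. Each sample pooled tissue from 4 brains, and between 44064161 and 49413273 reads per sample were assigned to genes. Every vehicle mouse carried hM3Dq as well, and no sample combined CNO with a virus lacking hM3Dq.

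mGlu receptors are G-protein-coupled receptors for glutamate, the transmitter that pyramidal cells release, and they act more slowly than the ion channels glutamate opens. Group I receptors, among them that of *Grm5*, sit mostly on the receiving side of the synapse and couple to Gq, phospholipase C and calcium release from internal stores. Group II receptors (*Grm2* and *Grm3*) and group III receptors (*Grm4*, *Grm6*, *Grm7* and *Grm8*) couple to Gi/o proteins, lower cyclic AMP and, on axon terminals, reduce transmitter release. In the cortex *Grm3* is also well known from astrocytes, and *Grm6* from bipolar cells of the retina.

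The labels were first checked against marker genes. *Pvalb*, which encodes the calcium buffer parvalbumin, had a mean level of 995 ± 140 TPM in the CNO group and 820.2 ± 349 TPM in the vehicle group (SD, n = 4 each). TPM corrects the read count for transcript length and sums to 1000000 in each sample, so it is the scale on which levels of different genes were compared. *Pvalb* was far lower in vehicle replicate 1, at 300.1 TPM, than in the other 7 samples, which had 819.7 to 1160.4 TPM. The activity-induced transcription factor gene *Fos* was higher in every CNO sample (36.9 to 83.7 TPM) than in any vehicle sample (13.8 to 20.6 TPM). The pulldown was not free of other cells. The summed level of 12 pyramidal cell markers, the most abundant being *Nrgn*, was 1679, 2039.9, 1771 and 1485 TPM in CNO replicates 1 to 4 and 2366, 2237, 1673 and 1785 TPM in vehicle replicates 1 to 4. Vehicle replicate 1 thus had the lowest *Pvalb* and the highest pyramidal cell markers of the 8 samples. A marker index, the mean log2 CPM (log2 counts per 1000000) of 11 PV+ interneuron markers minus that of the 12 pyramidal cell markers, was -0.39 in vehicle replicate 1, 0.83 in CNO replicate 2 and 0.99 to 1.96 in the other 6 samples.

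All 6 receptor genes were detected in every sample, and they fell into an upper set of 4 genes and a lower set of 2 genes. *Grm7*, a presynaptic group III receptor gene, had the highest mean over the 8 samples, 38.4 ± 11.8 TPM (SD, n = 8). Its level was 33.1, 47.0, 29.9 and 25.3 TPM in CNO replicates 1 to 4 and 61.9, 43.5, 32.8 and 33.6 TPM in vehicle replicates 1 to 4. Vehicle replicate 1 stood highest and CNO replicate 4 lowest, and the groups overlapped. *Grm5*, the group I gene of the set, followed with 30.8 ± 3.79 TPM (SD, n = 8). It had 24.6, 30.6, 31.3 and 26.4 TPM with CNO and 36.0, 30.7, 33.4 and 33.7 TPM with vehicle, in the same order of replicates. The 2 genes could not be put in order, since *Grm7* was above *Grm5* in 4 of the 8 samples, replicates 1 and 2 of both groups, and below it in replicates 3 and 4.

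The group II genes came next and also overlapped. *Grm2*, a presynaptic autoreceptor gene of excitatory terminals, had 25.8 ± 6.92 TPM (SD, n = 8), with 22.3, 30.0, 23.9 and 17.5 TPM in CNO replicates 1 to 4 and 40.0, 28.1, 23.0 and 21.5 TPM in vehicle replicates 1 to 4. As for *Grm7*, the highest value was that of vehicle replicate 1 and the lowest that of CNO replicate 4. *Grm3* had 22.4 ± 2.93 TPM (SD, n = 8) and was above *Grm2* in 3 of the 8 samples, since *Grm2* was above it in 5. *Grm8* (7.77 ± 2.55 TPM, SD, n = 8) and *Grm4* (7.34 ± 1.21 TPM, SD, n = 8), both of group III, formed the lower set. *Grm3* was 1.91 to 4.22 times as high as *Grm8* within each of the 8 samples, and this was the only step between neighbours in the order at which the ranges did not overlap. *Grm8* was above *Grm4* in 5 of the 8 samples. By mean TPM the members lay between the 40.1th (*Grm4*) and the 72.6th percentile (*Grm7*) of the 17495 genes tested.

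**Figure D1:**
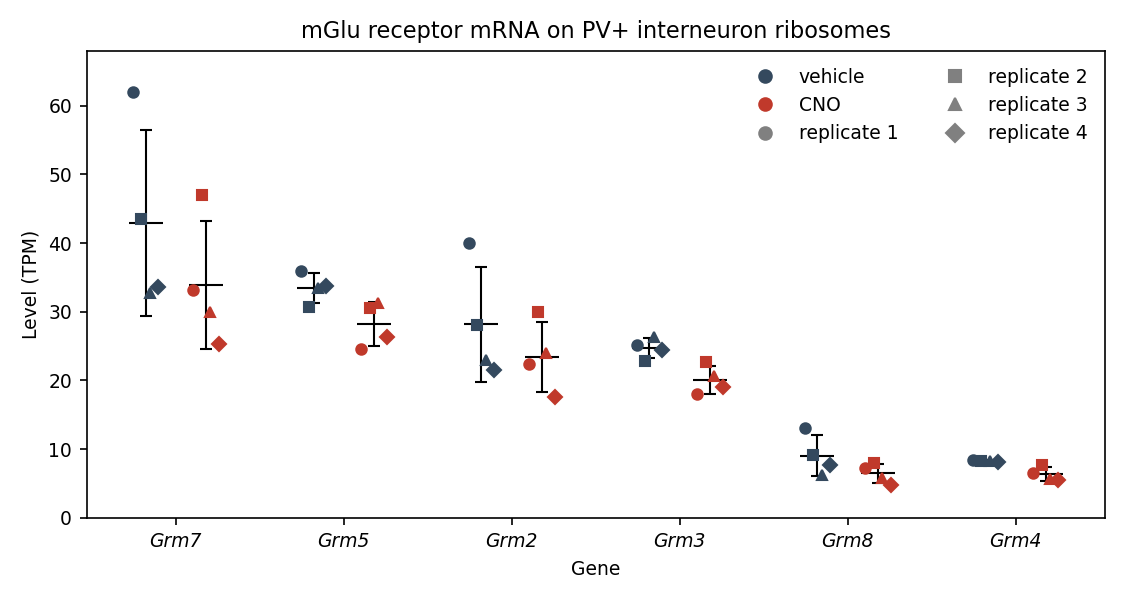
Level of each mGlu receptor gene in TPM (linear axis from 0) in the 4 vehicle and 4 CNO samples; marker shapes give the replicate number, and black lines give the mean and SD of each group. The lower pair, *Grm8* and *Grm4*, had means of 7.77 and 7.34 TPM, below the lowest sample of each of the other 4 genes, and vehicle replicate 1 was highest in *Grm7* at 61.9 TPM and *Grm2* at 40.0 TPM.

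*Grm6*, which is not among the 6 members, was at 0 reads in 6 samples and at 1 read in the others and was not tested. Among the 6 members, the group I share of their summed TPM (*Grm5*) was 24.1 ± 3.04% in CNO samples and 23.2 ± 3.23% in vehicle samples (SD, n = 4 each). The group II share was 36.8 ± 0.929% and 36.1 ± 1.22%, and the group III share 39.1 ± 3.90% and 40.7 ± 4.06%, in the same order (SD, n = 4 each). The group I share was 19.5 to 21.97% in replicates 1 and 2 of both groups and 25.7 to 26.7% in replicates 3 and 4, so that much of its spread ran along the replicate numbers, to which the labels tie no batch. In replicates 3 and 4 it was 26.66 and 26.70% with CNO and 25.72 and 26.09% with vehicle, and in replicates 1 and 2 the groups overlapped. None of the 3 differences exceeded the spread over all replicates (exact permutation tests, two-sided, adjusted p = 0.571 for each over the 3 shares). These tests permuted all samples together and did not take that division of replicates into account. The summed TPM of the members was 118 ± 19.9 with CNO and 147 ± 26.1 with vehicle (SD, n = 4; two-sided exact permutation test, p = 0.143). Vehicle replicate 1 had 185 TPM, and without it the vehicle mean was 134 TPM and the difference was -15.4 TPM in place of -28.1 TPM.

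CNO was compared with vehicle to ask whether raising the activity of PV+ interneurons was accompanied by a change in these receptor mRNAs. Levels of one gene were compared between samples as CPM normalized by edgeR's TMM method. All 6 members had a lower mean in the CNO samples, with log2 fold changes from -0.47 (*Grm8*) to -0.09 (*Grm5*) and a median of -0.26, whereas the median over all genes tested was 0.0014 and 49.6% of them had a log2 fold change below 0. None of the 6 passed the adjusted p of 0.05 in edgeR's quasi-likelihood test with Benjamini-Hochberg adjustment over all genes, and neither did any of the 17495 genes, so that 0% were called. The smallest adjusted p of any gene was 0.0520. The paper, which used edgeR's robust dispersion with similar cut-offs, did report genes changed in both directions. *Grm3*, *Grm4* and *Grm8*, 3 of the 6 members, had an unadjusted p under 0.05, all lower with CNO, against 2.65% of all genes in that direction (464 genes), and 0 members were higher at that p, against 1.44% of all genes. The 3 became 1, *Grm4*, without CNO replicate 4 (1.86% of all genes in either direction had such a p there) and 4 without CNO replicate 2 (9.63%). They became 2 without vehicle replicate 1 (2.26%), 3 (5.00%) or 4 (4.33%), without CNO replicate 1 (2.81%), with a replicate block (4.37%) and with the marker index as a covariate (3.24%). The ranges of both groups were separate in 2 members, *Grm3* and *Grm4*, both lower with CNO, against 1.63% of all genes in that direction, 0.789% in the other and 2.42% in either. The members are paralogues measured in the same 8 samples, and their directions are not independent of each other. In such pooled material fewer cells of a type and less RNA per cell cannot be told apart.

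*Grm4* had the smallest unadjusted p. Its level was 13.7, 14.8, 11.8 and 12.03 normalized CPM in CNO replicates 1 to 4 and 15.7, 16.1, 16.9 and 16.1 normalized CPM in vehicle replicates 1 to 4. The vehicle samples lay close together, at 16.2 ± 0.512 CPM (SD, n = 4), and all 4 CNO samples, at 13.1 ± 1.42 CPM (SD, n = 4), were below the lowest of them. The log2 fold change was -0.31 (standard error 0.10), 0.809 times the vehicle level, with an unadjusted p of 0.0127 and an adjusted p of 0.817 in edgeR's quasi-likelihood test. The two-sided exact permutation test gave p = 0.0286, the smallest that 4 samples against 4 allow. *Grm4* lies on the minus strand of chromosome 17 from 27422387 to 27521403 (GRCm38, GENCODE M21), and 0.233% of its 31-base transcript stretches are shared with any other gene.

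*Grm3* was also lower in all 4 CNO samples, with a smaller log2 fold change. Its level was 24.7, 28.6, 28.3 and 27.0 normalized CPM in CNO replicates 1 to 4 and 30.7, 29.6, 35.5 and 31.5 normalized CPM in vehicle replicates 1 to 4. The highest CNO sample, replicate 2, lay just below the lowest vehicle sample, also replicate 2. The group means were 27.1 ± 1.77 and 31.8 ± 2.59 CPM (SD, n = 4 each), a log2 fold change of -0.23 (standard error 0.093, unadjusted p = 0.0311, adjusted p = 0.817 in edgeR's quasi-likelihood test; two-sided exact permutation test, p = 0.0286). *Grm3* (chromosome 5 from 9485541 to 9725170, minus strand) has a single annotated transcript of 6 exons, and none of its 31-base stretches is shared with another gene. Of 11 astrocyte markers, all detected in every sample, 8 were lower and 3 higher with CNO. Their summed level was 565 to 661 TPM with CNO and 578 to 732 TPM with vehicle, *Aldoc* being the most abundant. Their mean log2 CPM had a Pearson r of 0.39 with *Grm3* over the 8 samples. This r was higher for *Grm2* (0.77), *Grm7* (0.77) and *Grm8* (0.74) and lower for *Grm4* (0.38) and *Grm5* (0.26). The part of astrocyte RNA in the difference of *Grm3* was not tested.

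*Grm8* had the largest log2 fold change of the members, -0.47 (standard error 0.17, unadjusted p = 0.0194, adjusted p = 0.817 in edgeR's quasi-likelihood test), but its groups overlapped. It had 7.19, 8.47, 6.96 and 5.89 normalized CPM in CNO replicates 1 to 4 and 13.0, 8.80, 8.12 and 9.46 normalized CPM in vehicle replicates 1 to 4 (exact permutation test, two-sided, p = 0.0571). Vehicle replicate 1 stood above all others, and without it the log2 fold change of *Grm8* was -0.31 and its unadjusted p in the quasi-likelihood test 0.0630. *Grm8* spans 860060 bases of chromosome 6 (27275119 to 28135178, minus strand) and hosts the microRNA gene *Mir592*.

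*Grm7* and *Grm2* had wide spreads, and over all 8 samples their differences were not larger than these. *Grm7* had 54.5 ± 11.8 normalized CPM with CNO and 66.9 ± 17.6 with vehicle (SD, n = 4 each), a log2 fold change of -0.30 (standard error 0.19, adjusted p = 0.817 in edgeR's quasi-likelihood test). Without vehicle replicate 1 the value was -0.11, and without CNO replicate 2 it was -0.45, with an unadjusted p of 0.0339 (adjusted p = 0.473) in the same test and separate groups. In that setting 9.63% of all genes had an unadjusted p under 0.05 and 5.29% were lower without overlap. *Grm2* had 32.9 ± 5.83 and 37.4 ± 9.08 CPM (SD, n = 4 each), a log2 fold change of -0.18 (standard error 0.17, adjusted p = 0.818 in the same test), and it was -0.0086 without vehicle replicate 1 and -0.29 without CNO replicate 2. In *Grm2*, 8.97% of the 31-base stretches are shared with other genes, the highest share among the members. *Grm2* overlaps *Gm28111* on the other strand. The other members also overlap annotated genes, 1 for *Grm3*, 2 for *Grm4*, 6 for *Grm5*, 2 for *Grm7* and 3 for *Grm8*. Of these, 1, 1, 5, 1 and 2 lie on the same strand, in the same order. Where strand was not used in counting, reads of an overlapping gene on the other strand cannot be told apart from those of the member. *Grm5* had 66.1 ± 5.32 and 70.5 ± 7.32 CPM (SD, n = 4 each), a log2 fold change of -0.09 (standard error 0.10, adjusted p = 0.823 in the same test). With limma on log2(TPM + 1) its value was -0.24.

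**Figure D2:**
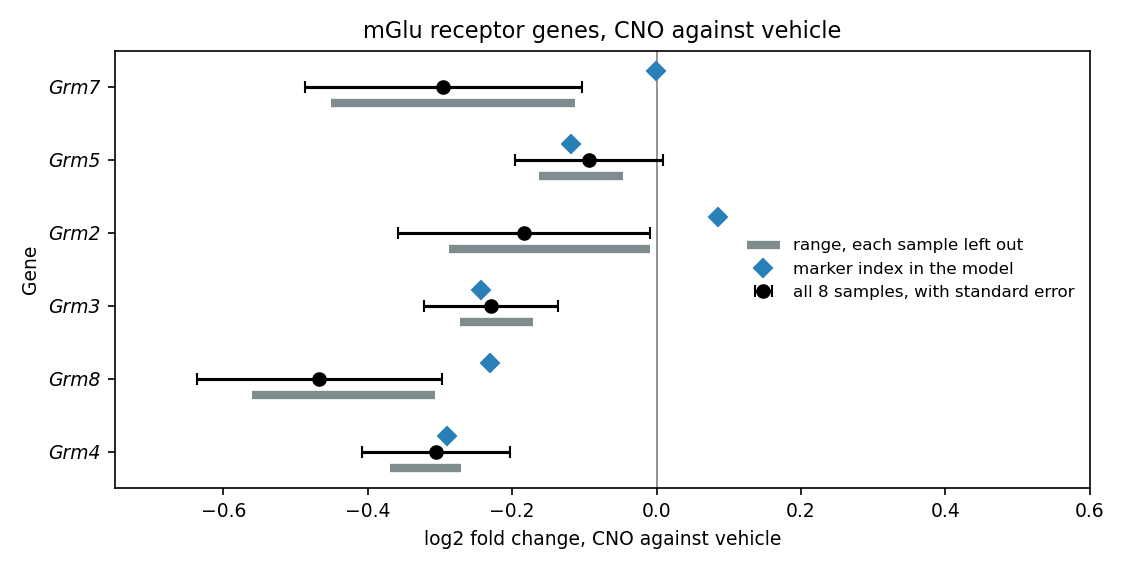
Log2 fold change of each mGlu receptor gene, CNO against vehicle (x axis). Black points give the fit to all 8 samples with its standard error, grey bars the range with each sample left out in turn, and blue diamonds the fit with the marker index as a covariate. All 6 points lie below 0, and with the index *Grm3* and *Grm4* stay near their values whereas *Grm7* lies at 0 and *Grm2* above it. The index itself was higher with CNO on average, so the diamonds do not separate it from the treatment.

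The level of each member was compared with the marker index, which was higher where PV+ interneuron markers were high relative to pyramidal cell markers. *Grm7* had a Pearson r of -0.951 with the index over the 8 samples (exact permutation p = 0.000496, adjusted p = 0.00201 over the 6 genes) and a Spearman rho of -0.881 (exact permutation p = 0.00724, adjusted p = 0.0308). For *Grm2* r was -0.948 (exact permutation p = 0.000670, adjusted p = 0.00201) and rho -0.857 (exact permutation p = 0.0107, adjusted p = 0.0308), and for *Grm8* r was -0.924 (exact permutation p = 0.00221, adjusted p = 0.00441) and rho -0.833 (exact permutation p = 0.0154, adjusted p = 0.0308). These 3 genes were thus highest in the sample with the lowest PV+ interneuron markers. Without vehicle replicate 1 and CNO replicate 4, the samples farthest from the median index, r was -0.907 for *Grm7*, -0.786 for *Grm2* and -0.569 for *Grm8*. For *Grm5*, *Grm3* and *Grm4* r was -0.0030, -0.29 and -0.46 and rho -0.19, -0.45 and -0.33, and the adjusted p of r over the 6 genes was 0.995, 0.563 and 0.390 (exact permutation). With the mean of the pyramidal cell markers alone r was 0.92 for *Grm2*, 0.94 for *Grm7* and 0.85 for *Grm8*, against 0.51 for *Grm4*, 0.19 for *Grm3* and -0.13 for *Grm5*. Whether these correlations differ between the genes was not tested. The share of all genes with an r to the index as large as that of *Grm7*, *Grm2* or *Grm8* was not determined. Their r therefore does not set these receptor genes apart from other genes. The permutations treated all 8 samples as exchangeable and did not take treatment or the replicate numbers into account.

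The index had a mean of 1.43 with CNO and 0.82 with vehicle, or 1.22 without vehicle replicate 1, so that the difference of 0.61 was 0.21 without that sample. Over all 8 samples, all 11 PV+ interneuron markers had a higher mean with CNO (median log2 fold change 0.43, 1 of them at an unadjusted p under 0.05) and 10 of 12 pyramidal cell markers a lower one (median -0.13). With the index as a covariate in the quasi-likelihood fit, the log2 fold change was -0.00060 for *Grm7*, 0.08 for *Grm2* and -0.23 for *Grm8*, with unadjusted p values of 0.995, 0.322 and 0.0625. For *Grm4* it was -0.29 and for *Grm3* -0.24, with unadjusted p values of 0.0165 and 0.0189 in edgeR's quasi-likelihood test. The value of *Grm5* was -0.12, with an unadjusted p of 0.244 in the same test. The adjusted p of all 6 was 0.999 in this fit. Since the index itself was higher with CNO on average, the fit cannot tell the part of the index from that of the treatment.

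Markers of further cell types were present in every sample, and their part in the differences of the receptors was not tested. The 5 markers of VIP and CCK interneurons, led by *Cck*, summed to 201 ± 12.3 TPM in CNO samples and 238 ± 16.4 TPM in vehicle samples (SD, n = 4 each), and the sums did not overlap (exact permutation test, two-sided, p = 0.0286). *Cck* made up most of the sum, at 171 TPM, so the sum mostly follows 1 gene. The groups overlapped in each of the 5 genes, of which 1 had a higher and 4 a lower mean (median log2 fold change -0.10, 0 at an unadjusted p under 0.05). Which cells this RNA came from was not tested, and the p values of the list sums were not adjusted over the lists. All 8 oligodendrocyte, 5 oligodendrocyte precursor and 7 microglia markers had a lower mean with CNO (median log2 fold changes -0.23, -0.21 and -0.24), with 1 of them, a microglia marker, at an unadjusted p under 0.05. Their sums overlapped between the groups, with *Olig1* the most abundant precursor and *P2ry12* the most abundant microglia marker (exact permutation p = 0.286, 0.114 and 0.143). All 6 blood vessel markers, led by *Cldn5*, had a higher mean with CNO (median 0.29, exact permutation p = 0.886 for the sum), and of 5 SST interneuron markers, led by *Sst*, 3 were higher and 2 lower (median 0.12, exact permutation p = 0.629).

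**Figure D3:**
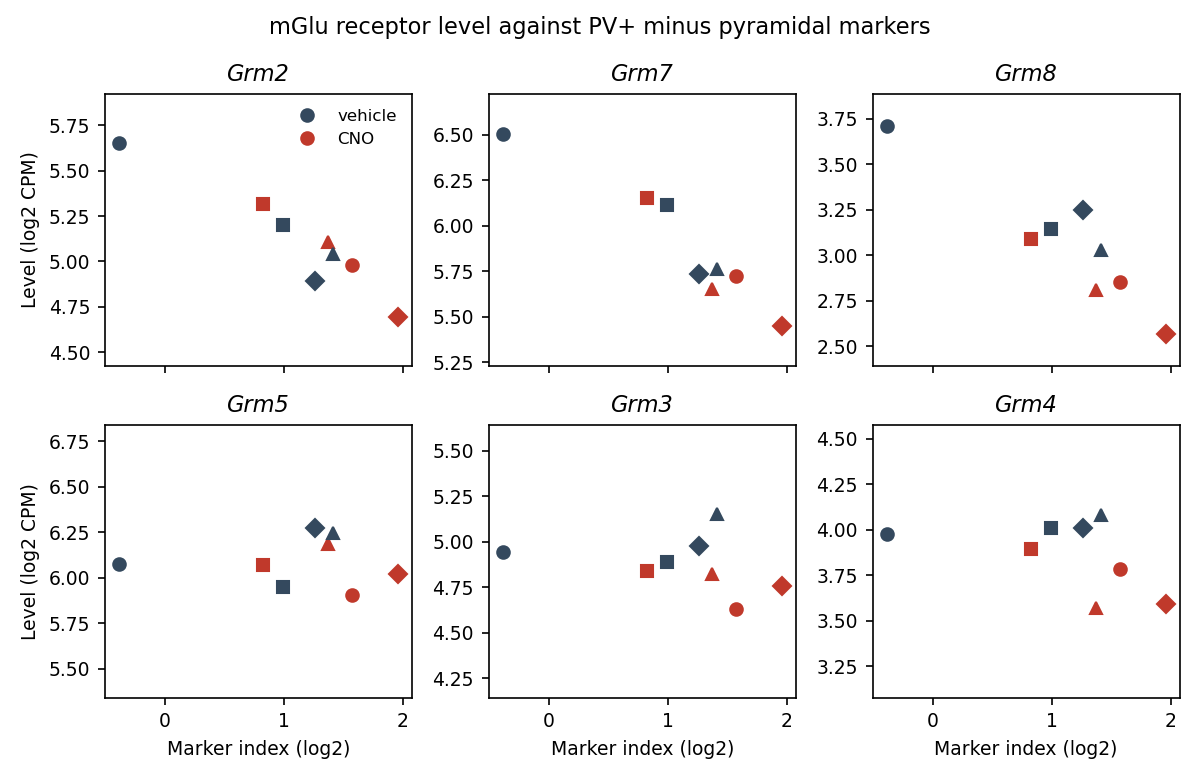
Level of each mGlu receptor gene (log2 CPM, y axis, each panel spanning the same range) against the marker index (log2 units, x axis) in 8 samples, coloured by treatment with marker shapes for the replicate number. In the upper row r was -0.948 for *Grm2*, -0.951 for *Grm7* and -0.924 for *Grm8*, and in the lower row the CNO samples of *Grm3* and *Grm4* lie below all vehicle samples.

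The members were also compared with one another. Across the 8 samples the Pearson r of log2 CPM was 0.948 between *Grm2* and *Grm7*, 0.873 between *Grm7* and *Grm8* and 0.808 between *Grm2* and *Grm8*. *Grm3* varied most with *Grm5* (0.738) and with *Grm4* (0.706), *Grm4* also with *Grm8* (0.705) and *Grm7* (0.556), and *Grm5* was close to unrelated to *Grm2* (-0.084). These values are descriptions over 8 samples that share their libraries. The levels most like each member among the genes with a mean TPM above 1 were named by Pearson r over the same samples. They were *Tgds* (0.988), *2010111I01Rik* (0.986) and *March1* (0.985) for *Grm7*, *Clk1* (0.993), *9830144P21Rik* (0.990) and *Zfp281* (0.989) for *Grm2*, and *Kdm5a* (0.984), *Zfp119a* (0.984) and *Mal2* (0.983) for *Grm8*. For *Grm3* they were *Kirrel3* (0.972), *Pofut1* (0.970) and *Tars2* (0.950), for *Grm4* *Alox5ap* (0.964), *Hcrtr1* (0.944) and *Prr5* (0.943), and for *Grm5* *Synj2* (0.966), *Taf1* (0.966) and *Tenm3* (0.963).

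Promoter sequence was available for 4 of the 6 members, and 1 window each is shown, for *Grm2*, *Grm7* and *Grm8*, which had the highest correlations with one another, and for *Grm3*, whose groups were separate. The windows hold the 250 bases before a RefSeq transcription start (GRCm38.p6), 5′ to 3′ on the strand of the gene. They are chr9:106656110-106656359 (minus strand) for *Grm2*, chr6:110645262-110645511 (plus strand) for *Grm7*, chr6:28135147-28135396 (minus strand) for *Grm8* and chr5:9725353-9725602 (minus strand) for *Grm3*. Capitals mark matches, on either strand, to motifs of activity-regulated factors, namely CRE (TGACGTCA), its core (TGACG), which lies within it, AP-1 (TGANTCA), EGR (GCGNGGGCG) and the E-box (CACGTG).
Grm2: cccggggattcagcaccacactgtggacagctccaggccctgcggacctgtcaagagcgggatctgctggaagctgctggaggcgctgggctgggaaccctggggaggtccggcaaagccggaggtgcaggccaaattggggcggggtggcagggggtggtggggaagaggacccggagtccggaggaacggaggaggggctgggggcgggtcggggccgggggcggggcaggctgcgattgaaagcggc
Grm7: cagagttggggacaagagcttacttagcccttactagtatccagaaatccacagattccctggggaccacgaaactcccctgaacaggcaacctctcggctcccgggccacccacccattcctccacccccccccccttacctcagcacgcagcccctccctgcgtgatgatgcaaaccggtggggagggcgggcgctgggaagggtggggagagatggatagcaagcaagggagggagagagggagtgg
Grm8: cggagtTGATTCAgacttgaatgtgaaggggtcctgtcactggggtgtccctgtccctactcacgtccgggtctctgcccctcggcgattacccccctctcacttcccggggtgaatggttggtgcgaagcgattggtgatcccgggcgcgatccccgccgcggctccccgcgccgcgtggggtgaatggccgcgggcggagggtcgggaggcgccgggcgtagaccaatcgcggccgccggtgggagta
Grm3: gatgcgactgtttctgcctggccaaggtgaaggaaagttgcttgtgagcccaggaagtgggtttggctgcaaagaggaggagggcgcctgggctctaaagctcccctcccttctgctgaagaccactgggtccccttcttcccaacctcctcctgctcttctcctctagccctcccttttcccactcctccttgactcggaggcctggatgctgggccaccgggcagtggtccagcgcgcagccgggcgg
The single match in these 4 windows was an AP-1 match in *Grm8* that ends 238 bases before the start, and AP-1 matches occurred in 6.75% of the 32851 RefSeq windows of this length. A further start of *Grm8* (chr6:28134422-28134671) held 1 CRE core, which occurred in 17.8% of all windows, and no window of the 7 member starts held a full CRE (1.55% of all windows), an EGR match (4.70%) or an E-box (6.02%). The 4 windows had a GC content of 71.2% (*Grm2*), 62.0% (*Grm7*), 68.4% (*Grm8*) and 62.4% (*Grm3*), each above the median of 52.4% over all windows, and 8 to 29 CpG dinucleotides against a median of 6. Of the member windows not shown, another start of *Grm7* had 65.2% and 9 CpG. The *Grm8* window with the CRE core had 54.4% and 8 CpG. The remaining *Grm8* window (chr6:28126427-28126676) lay below both medians, at 43.6% and 2 CpG. A match of letters is not a bound site.

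The genes that carry mGlu signals inside the cell were examined as lists, which are given here by counts and medians. In the group I chain 2 of 11 genes had a higher and 9 a lower mean with CNO. Their median log2 fold change was -0.15 and 0 had an unadjusted p under 0.05. Its most abundant gene was the phospholipase gene *Plcb1* (148 TPM, log2 fold change -0.16, standard error 0.13). The Gi/o chain of groups II and III, with G-protein subunits, adenylate cyclases and potassium channels, had 8 of 20 genes higher and 12 lower, a median of -0.02 and 0 genes at an unadjusted p under 0.05. *Gnb1* (432 TPM) and *Gng3* (234 TPM), G-protein beta and gamma subunit genes, had log2 fold changes of 0.05 (standard error 0.12) and 0.23 (standard error 0.19). The medians of these lists lay nearer to 0 than that of the receptors.

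Homer and Shank proteins hold group I receptors in the postsynaptic density, and 4 of 8 genes of this list had a higher and 4 a lower mean (median -0.02). *Homer3* was higher with CNO at 0.54 (standard error 0.19, unadjusted p = 0.0148) and without overlap of the groups, as in 0.789% of all genes, but at a low level of 3.06 TPM. *Homer2*, at 4.19 TPM, was lower at -0.28 (standard error 0.10, unadjusted p = 0.0186). The adjusted p of both was 0.817 in edgeR's quasi-likelihood test. The abundant scaffold genes *Dlgap1* (568 TPM) and *Homer1* (152 TPM) had log2 fold changes of -0.18 (standard error 0.11) and -0.09 (standard error 0.10), and for *Dlgap1* all CNO samples lay below all vehicle samples, as in 1.63% of all genes.

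Among proteins that bind the receptors, 10 of 12 genes had a higher and 2 a lower mean (median 0.11) and 0 had an unadjusted p under 0.05. The most abundant of them, the calmodulin gene *Calm2* (2649 TPM), was at 0.10 on the log2 scale (standard error 0.16). Of 10 genes that switch the signal off, 5 were higher and 5 lower (median -0.02). *Rgs2*, which shortens Gq signals, was higher at 0.49 (standard error 0.15, unadjusted p = 0.00916, adjusted p = 0.817 in edgeR's quasi-likelihood test), with 114 TPM. The most abundant of these 10 genes, *Rgs4* (261 TPM), had -0.21 (standard error 0.11). Its CNO samples likewise lay below all vehicle samples, as in 1.63% of all genes. Of 8 genes for glutamate transport, 3 were higher and 5 lower (median -0.07) and 0 had an unadjusted p under 0.05, the most abundant being the vesicular transporter gene *Slc17a7* of pyramidal cells (433 TPM, log2 fold change -0.20, standard error 0.12) and the glutamine synthetase gene *Glul* (125 TPM, -0.06, standard error 0.09). Over all 6 lists 3 of 69 genes had an unadjusted p under 0.05 in either direction, against 4.09% of all genes tested, and 0 passed after adjustment.

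**Figure D4:**
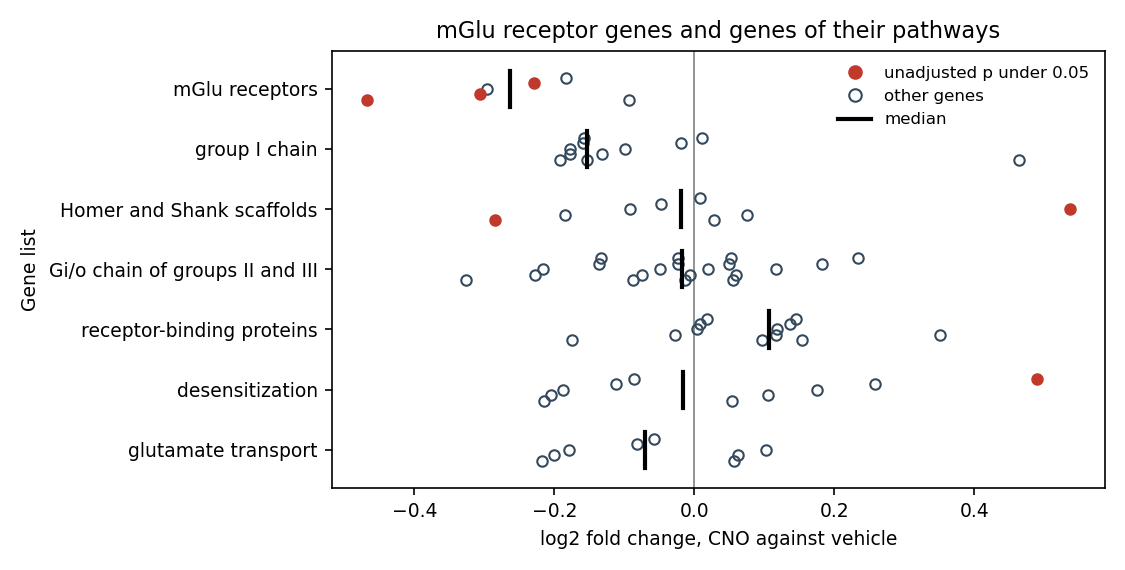
Log2 fold change, CNO against vehicle (x axis), of the 6 mGlu receptor genes and of 6 lists of genes of their pathways. Each circle is a gene, red where the unadjusted p was under 0.05, and black lines give the median of each list, which was -0.26 for the receptors and between -0.15 and 0.11 for the other lists.

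The deposited tables also give the mean transcript length behind each value, as the count divided by TPM, here relative to the median gene of the same sample. For *Grm3*, with its single transcript, this relative length was 1.28 ± 0.00785 with CNO and 1.29 ± 0.0121 with vehicle (SD, n = 4 each). *Grm5* had 2.22 ± 0.0434 and 2.10 ± 0.130 (SD, n = 4 each; two-sided exact permutation test, p = 0.171), and *Grm8* varied most, with 1.05 ± 0.0870 and 1.11 ± 0.130 (SD, n = 4 each; two-sided exact permutation test, p = 0.543). The coefficient of variation over the 8 samples was 9.91% for *Grm8* and 5.12% for *Grm5*, against 0.781% to 1.88% for the other 4 members. The transcripts assigned to *Grm8* and *Grm5* thus differed more between samples than those of the other members, and in neither gene was the difference between groups larger than the spread.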

How the data were processed

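Ribosome-associated mRNA of PV+ interneurons was sequenced in 4 CNO and 4 vehicle samples. Reads were trimmed (Trim Galore) and aligned to GRCm38 (STAR) by the authors, who estimated gene abundance with Salmon and imported it with tximport. The authors deposited estimated counts per gene without normalization or filtering, and the authors deposited TPM values scaled to 1000000 per sample. Another deposited table pairs identifiers with symbols.

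Counts were rounded to whole numbers, genes were dropped where 4 or more samples had fewer than 10 counts, and 17495 genes were analysed in R 4.3.3 with edgeR 4.0.16 (TMM, quasi-likelihood test, Benjamini-Hochberg adjustment over all genes). A call needed an adjusted p below 0.05, a mean TPM over 1 and a change of more than 1.5-fold. Standard errors came from the fitted coefficients, and log2 CPM used a prior count of 2. For single values, all 70 assignments of samples to groups were permuted (exact, two-sided). The depth allowed a floor of 3 counts, 0.0607 to 0.0681 CPM, which covers counting error only. The pipeline was tested on simulated data. Alternatives used robust dispersion with the likelihood ratio test, DESeq2 1.42.0, limma 3.58.1 on log2 TPM, other normalizations and filters, a replicate block, the marker index and each sample left out. Plots used Python 3.11.15 and matplotlib 3.10.9.

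The members and lists were chosen with earlier results of these data known. Genes named were the 6 members, *Grm6*, the 2 most abundant genes of each pathway list and any of its genes with an unadjusted p under 0.05, the 3 genes most like each member, and *Pvalb* and *Fos*. The most abundant genes of the marker lists and genes that overlap a member were named outside this rule, after their values were seen. Some genes that the rule takes are not reported here. Promoters came from RefSeq, and gene positions and shared 31-base stretches from GENCODE M21.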

Additional observations from a re-analysis of the deposited data

Results flagged for a closer look

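The distance of an extreme sample to the next one, as a ratio to the full range within its group of 4, was computed for the levels, shares and relative lengths of the members and for the marker means. Of 44 groups of values, 4 had a ratio above Dixon's critical value at the 95% level, and about 2.2 would by chance. The group II share was highest in vehicle replicate 3, at 37.9% against 35.3 to 35.7% in the other vehicle samples (ratio 0.832). The relative transcript length of *Grm8* was lowest in CNO replicate 1, at 0.924 against 1.09 to 1.11 in the other CNO samples (ratio 0.871). The mean log2 CPM of the PV+ interneuron markers was lowest in vehicle replicate 1, at 5.80 against 7.09 to 7.32 in the other vehicle samples (ratio 0.853), the sample in which *Grm2*, *Grm7* and *Grm8* were highest. The mean log2 CPM of oligodendrocyte precursor markers was lowest among vehicle samples in replicate 2, at 3.82 against 4.03 to 4.06 (ratio 0.841). No level of a member stood apart in this way.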

How the results depend on the processing

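The number of genes called over the whole table was 0 and changed to 12 with robust dispersion and the likelihood ratio test, to 10 with DESeq2's Wald test and to 4 without the filter on low counts, and lay between 0 and 2 with each sample left out (2 without CNO replicate 1). No member was among them under these settings, and the adjusted p of the members ranged from 0.473 to 1.00 over 17 alternatives each. *Grm3*, *Grm4*, *Grm5*, *Grm7* and *Grm8* had values below 0 under all 17, but that of *Grm7* with the marker index was -0.00060 (unadjusted p = 0.995 in edgeR), which gives no direction. *Grm2* reversed to 0.085 with the marker index. With each sample left out, log2 fold changes lay between -0.37 and -0.27 for *Grm4*, -0.27 and -0.17 for *Grm3*, -0.56 and -0.31 for *Grm8*, -0.45 and -0.11 for *Grm7*, -0.29 and -0.0086 for *Grm2* and -0.16 and -0.05 for *Grm5*. The members with an unadjusted p under 0.05 numbered from 1 to 4 with each sample left out. They were *Grm4* alone without CNO replicate 4, against 1.86% of all genes in either direction, *Grm3* and *Grm4* without vehicle replicate 1, against 2.26%, and *Grm3*, *Grm4*, *Grm7* and *Grm8* without CNO replicate 2, against 9.63%, where the groups were also separate in these 4, against 5.29% of all genes lower without overlap, a count added after seeing the data. With limma on log2(TPM + 1), *Grm5* (-0.24, unadjusted p = 0.0368, adjusted p = 0.749) was under 0.05 and *Grm8* was not. Over the tested genes with a mean TPM above 1, a subset of those behind the median of 0.0014 given for all genes, the median was -0.06 in that fit and 0.0096 by TMM. The group I share reversed to -0.37 points without vehicle replicate 1 and to -0.0068 without CNO replicate 4 (-0.37 to 1.91). With each sample left out, the difference in the group II share lay between 0.28 and 1.28 points (1.28 without vehicle replicate 3), and that in the group III share between -2.99 (without vehicle replicate 3) and -0.028 points (without vehicle replicate 1). From counts not divided by length, the share differences were 2.50 (group I), 0.17 (group II) and -2.67 points (group III). From TPM over all 8 samples they were 0.87, 0.68 and -1.55 points. By CPM, not divided by length, 2 of 6 members kept their position in the order, with *Grm5* first and *Grm8* last. The replicate block gave -0.31 for *Grm4*, -0.23 for *Grm3* and -0.46 for *Grm8*, with unadjusted p values of 0.0274, 0.0509 and 0.0248. The correlation of deviations between same-numbered samples was 0.026, -0.030, 0.16 and 0.24 for numbers 1 to 4, so the numbers were not taken as pairs, and not every sample correlated best with its own number. All 8 correlations between numbers 1 and 2 of one group and 3 and 4 of the other were negative (-0.40 to -0.045), and 7 of the other 8 were positive (-0.030 to 0.43), a division seen in the data that the labels do not give and that, of the fits, the replicate block alone takes in. The block changed no call, as 0 genes passed with it and without it. The p values measure the spread between pools of 4 brains, and the cause of these shifts was not tested.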
